A study of Drosophila melanogaster with 18 samples.

Results

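Box C/D and box H/ACA small nucleolar ribonucleoproteins (snoRNPs) are the particles that modify ribosomal RNA, and 8 genes were chosen for them by name: Fib, nop5, Nop56, Nop60B, NHP2 and hoip, which encode snoRNP core proteins, Nopp140, which encodes a nucleolar snoRNP chaperone, and coil, which encodes the Cajal body protein coilin. Values were read for 7 of these 8 genes among the 15682 genes of the table, and hoip was not analysed here. The genes were measured by poly(A) RNA sequencing of Drosophila melanogaster ovaries in 18 libraries from 3 separate experiments, each with 3 libraries of ovaries labelled as mutant for a subunit of the SAGA co-activator complex and 3 libraries of its own FRT control. SAGA carries a histone acetyltransferase module, which Ada2b belongs to, and a histone H2B deubiquitinase module, which holds Ataxin-7 and the protease Non-stop.

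The mutant genotypes were ada2b, Ataxin-7 and non-stop, and the FRT controls are labelled wild type. The labels name no allele and no age. FRT sites are recombination targets that allow clones of homozygous mutant germ cells to be made in heterozygous females. For such clones larvae received a heat shock of 37 °C for 2 h on consecutive days, flies were grown at 25 °C, and females were given yeast before their ovaries were dissected. The labels do not say how large the clones were or which cells kept a wild-type copy, and a whole ovary also holds follicle cells and muscle. Each genotype was sampled as biological triplicates, but the labels do not say how many females were pooled.

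In a box C/D snoRNP a guide RNA positions fibrillarin, which methylates the 2′-hydroxyl of ribosomal RNA, on a scaffold of the Nop56 and Nop5 (Nop58) proteins. In a box H/ACA snoRNP the pseudouridine synthase dyskerin, called Nop60B in flies, works with Nhp2, Nop10 and Gar1. Nopp140 binds both kinds of particle in the nucleolus and the Cajal body, and coilin is the scaffold protein of the Cajal body, where small RNPs are modified and assembled. Nurse cells of the fly ovary have large nucleoli and make the ribosomes that the egg inherits.

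The values are RPKM, reads scaled by gene length in kilobases and by library size, as deposited. Between 454 and 28452 reads lay behind each value of the 7 genes. Fold changes came from limma fits to log2(RPKM + 1), for every gene whose mean RPKM in an experiment reached 1, and a call means a Benjamini-Hochberg adjusted p below 0.05. Log2 fold changes are mutant minus FRT control on this scale. All 7 genes passed the filter in all 3 experiments. Levels were scaled within each experiment only: the library scaling factors ranged from 0.902 to 1.08 and their geometric mean over the 6 libraries of an experiment was 1.0 in the ada2b and Ataxin-7 experiments and 0.9999 in the non-stop experiment. Levels of different experiments are therefore given side by side and not tested against each other. In the non-stop experiment the factors were 1.06, 1.07 and 1.08 in the mutant libraries, and 0.971, 0.902 and 0.931 in the FRT controls. A larger factor lowers every RPKM of its library, so the non-stop log2 fold changes lean on this scaling.

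The mutated genes and the libraries were examined first. Ada2b was at 7.57 ± 1.31 RPKM in ada2b ovaries and 45.4 ± 1.06 RPKM in FRT ovaries (SD, n = 3 each), and the non-stop gene (not) was at 1.64 ± 0.162 RPKM in non-stop ovaries and 21.1 ± 3.04 RPKM in FRT ovaries. Atxn7 went against its label, at 12.5 ± 0.047 RPKM in the libraries labelled Ataxin-7 and 7.72 ± 0.176 RPKM in their FRT controls, so these are called the libraries labelled Ataxin-7 throughout, and every direction drawn from them rests on the label. The reads on genes numbered from 22608642 to 42020556 per library. Library ada2b replicate 1 was the shallowest and stood apart from its replicates, with a chi-square per degree of freedom of 365 and 252 against replicates 2 and 3, while all other replicate pairs lay between 8.84 and 74.6. Calls were frequent: 67.9% of the 7674 genes tested were called in ada2b ovaries, 44.3% of 7428 in the libraries labelled Ataxin-7 and 50.8% of 7492 in non-stop ovaries.

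The changes of the 7 genes against their FRT controls were not alike in the 3 experiments. Each genotype was run in its own experiment, so genotype and experiment cannot be told apart. In ada2b ovaries, 5 of the 7 were called higher (Fib, nop5, Nop56, NHP2 and Nopp140) against 25.6% of all genes tested, and coil was called lower, as 42.3% of all genes were. Libraries labelled Ataxin-7 had 5 of the 7 called higher (nop5, Nop56, Nop60B, NHP2 and Nopp140) against 20.0% of all genes, while none was called lower, against 24.3% of all genes. In that limma comparison 1 gene, coil, was lower at an unadjusted p under 0.05, and limma voom on the reads called it lower. In non-stop ovaries, 4 of the 7 were called lower (Fib, nop5, NHP2 and coil) against 25.0% of all genes, and only Nopp140 was called higher, against 25.7%. The median log2 fold change of the 7 genes was 0.65 in ada2b ovaries, 0.21 in the libraries labelled Ataxin-7 and -0.24 in non-stop ovaries, beside medians over all tested genes of -0.13, -0.015 and -0.012.

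**Figure D1:**
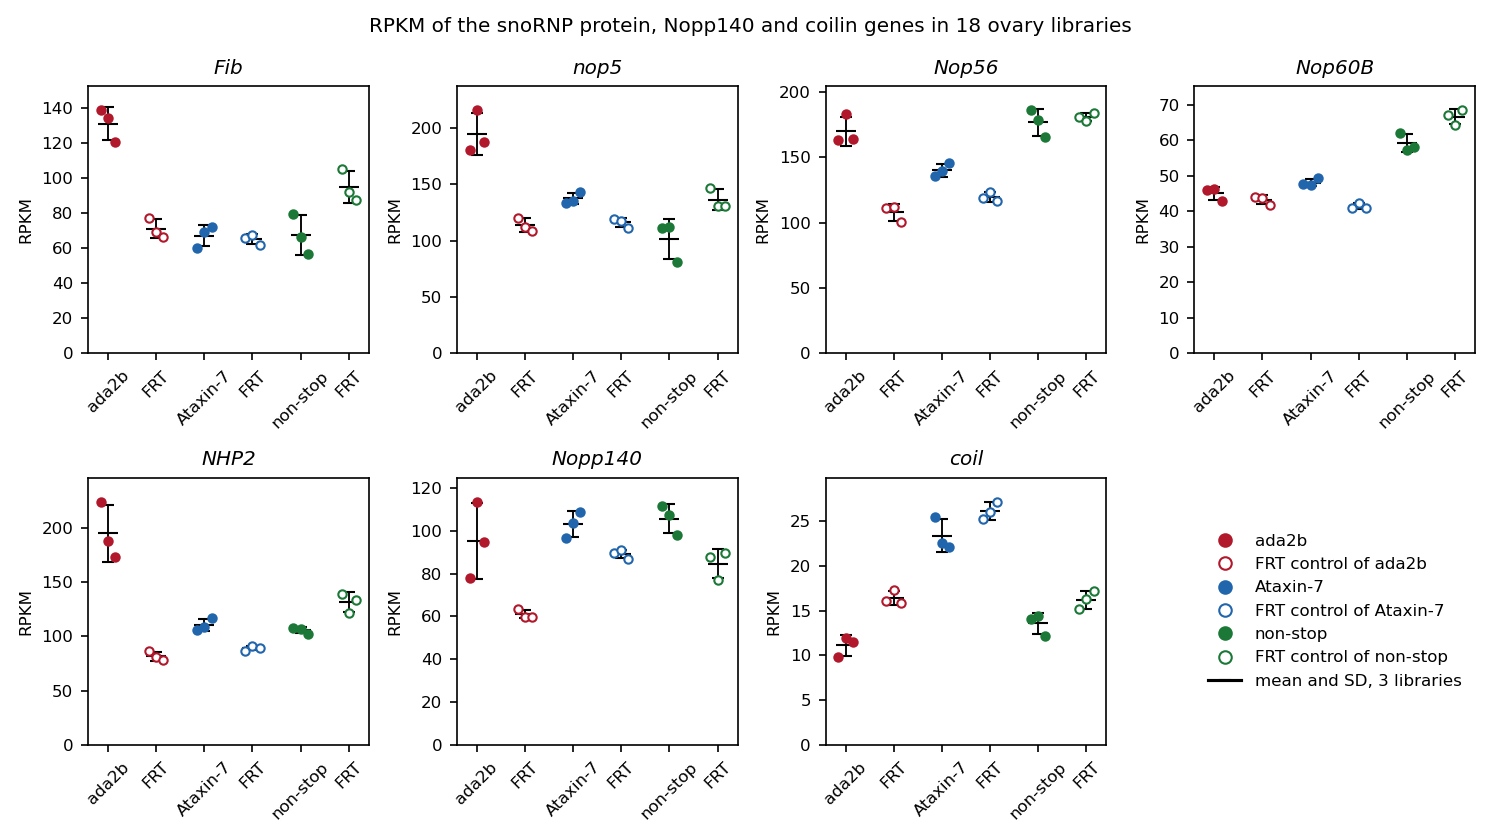
RPKM (vertical axes, each from 0) of the 7 genes in each of the 18 libraries, with filled points for mutant libraries, open points for FRT control libraries, and bars for the mean and SD of 3 libraries. In ada2b ovaries all 3 values of Fib, nop5, Nop56, NHP2 and Nopp140 lie above, and all 3 values of coil below, those of the FRT control.

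Among the box C/D proteins, Fib encodes fibrillarin, the methyltransferase (FBgn0003062; BDGP6.54 2R, 23072909 to 23074725, minus strand; protein-coding). Fib was at 139, 134 and 121 RPKM in the 3 ada2b libraries, against 77.3, 69.5 and 66.7 RPKM in their FRT controls. All 3 ada2b values were above all 3 FRT values, and the ratio of the means was 1.84. Its log2 fold change was 0.87 (limma adjusted p = 0.000218), with a standard error (SE) of 0.085. Libraries labelled Ataxin-7 had Fib at 60.3, 69.5 and 71.9 RPKM, against 66.1, 67.4 and 61.8 RPKM in FRT ovaries. These groups overlapped, and the log2 fold change of 0.043 was not called (limma adjusted p = 0.647), with a 95% interval of -0.12 to 0.21. In non-stop ovaries Fib was at 79.4, 66.5 and 57.0 RPKM, against 105, 92.3 and 87.6 RPKM in FRT ovaries. All non-stop values were below all FRT values, and non-stop replicate 1 came closest to the controls. This was a log2 fold change of -0.49 (SE 0.13, limma adjusted p = 0.0138), and with quantile normalization it was -0.29 and not called (limma adjusted p = 0.122).

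The nop5 gene encodes the fly counterpart of yeast Nop58, one of the paired scaffold proteins of the box C/D particle (FBgn0026196; 2L, 6916753 to 6918743, minus strand). Its RPKM was 180, 215 and 187 in ada2b ovaries, against 120, 112 and 108 in FRT ovaries. The ada2b values were all above the FRT values, with a log2 fold change of 0.77 (SE 0.088, limma adjusted p = 0.000391). Libraries labelled Ataxin-7 had nop5 at 133, 136 and 143 RPKM, against 119, 118 and 111 RPKM in FRT ovaries. These groups did not overlap either, and the log2 fold change of 0.24 was called (SE 0.043, limma adjusted p = 0.00444), but not when all 18 libraries were fitted together (limma adjusted p = 0.107). In non-stop ovaries nop5 was at 111, 112 and 80.7 RPKM, against 147, 131 and 131 RPKM in FRT ovaries. The 3 non-stop values lay below the FRT values, with non-stop replicate 3 far below replicates 1 and 2. This gave a log2 fold change of -0.44 (SE 0.13, limma adjusted p = 0.0255). It was not called without FRT replicate 1 (-0.38) or FRT replicate 2 (-0.47), without the filter on low values, or with quantile normalization (-0.21, limma adjusted p = 0.271).

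The nop5 gene lies inside the span of x16, a gene on the same strand that encodes a splicing factor of the SR family (2L, 6914301 to 6920210), and no exon of one overlaps an exon of the other. How the reads were assigned there was read from the table itself. Nested gene pairs were taken where the inner gene had a mean above 200 reads and met no exon of the outer gene. Of 47 such pairs on the same strand, the outer gene held at least as many reads as the inner one in all libraries in 47. On opposite strands this held for 53 of 153 such pairs. Reads on nop5 were therefore also counted for x16, and they equalled 77.9 to 81.3% of the reads of x16 in ada2b ovaries and 59.8 to 61.5% in FRT ovaries. The share was 62.7 to 66.9% in the libraries labelled Ataxin-7, against 60.4 to 63.3% in FRT ovaries, and in non-stop ovaries it was 46.3 to 57.0%, against 56.4 to 62.5%. x16 itself was called higher in ada2b ovaries (log2 fold change 0.38, limma adjusted p = 0.00405), but its reads less those on nop5, scaled by library size only (RPM), were 98.9 to 102 RPM in ada2b ovaries and 142 to 150 RPM in FRT ovaries. The reverse holds for nop5: any reads from the x16 intron around it would be in its value, and these cannot be told apart from nop5 reads in this table.

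Nop56 encodes the second scaffold protein of the box C/D core (FBgn0038964; 3R, 22419095 to 22421068, minus strand). It was at 163, 183 and 164 RPKM in ada2b ovaries, against 112, 112 and 101 RPKM in FRT ovaries, so the groups did not overlap. Its log2 fold change was 0.65 (SE 0.078, limma adjusted p = 0.000478). Nop56 was at 136, 139 and 145 RPKM in the libraries labelled Ataxin-7, against 119, 124 and 117 RPKM in FRT ovaries. Again every labelled library was above every control, with a log2 fold change of 0.23 (SE 0.041, limma adjusted p = 0.00471). In non-stop ovaries it was at 186, 178 and 166 RPKM, against 181, 178 and 184 RPKM in FRT ovaries. Here the groups overlapped, non-stop replicate 3 being the lowest and replicate 1 the highest of the 6. At -0.034 the log2 fold change had a 95% interval of -0.20 to 0.13 (limma adjusted p = 0.706), and its sign turned with quantile normalization (0.18) and without non-stop replicate 3 (0.011). Nop56 was the one box C/D protein gene of the 3 measured that was not called in non-stop ovaries.

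Among the box H/ACA proteins, NHP2 encodes a small RNA-binding subunit of the core (FBgn0029148; 3L, 14801328 to 14802168, minus strand). It was at 224, 188 and 173 RPKM in ada2b ovaries, against 86.1, 81.1 and 78.1 RPKM in FRT ovaries. All ada2b values were at least 2-fold above every control value, with replicate 1 the highest. The log2 fold change of 1.24 (SE 0.10, limma adjusted p = 0.00013) was the largest in size of the 21 comparisons of the 7 genes with their controls, and it was 1.13 without ada2b replicate 1. NHP2 was at 106, 108 and 116 RPKM in the libraries labelled Ataxin-7, against 86.8, 90.8 and 89.7 RPKM in FRT ovaries. The groups did not overlap, and the log2 fold change of 0.30 (SE 0.045, limma adjusted p = 0.0019) was the largest of the 7 genes in those libraries. In non-stop ovaries NHP2 was at 108, 107 and 102 RPKM, against 139, 121 and 134 RPKM in FRT ovaries. All non-stop values were lower, with a log2 fold change of -0.31 (SE 0.074, limma adjusted p = 0.00999). With quantile normalization this change was -0.069 and not called (limma adjusted p = 0.514).

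Nop60B encodes the pseudouridine synthase of the same H/ACA core, the fly dyskerin (FBgn0259937; 2R, 24174877 to 24186343, plus strand; 5 annotated transcripts). Its RPKM was 46.0, 46.4 and 43.0 in ada2b ovaries, against 44.1, 43.9 and 41.8 in FRT ovaries. The groups overlapped, and the log2 fold change of 0.060 was not called (limma adjusted p = 0.397), with a 95% interval of -0.083 to 0.20. That result depended on the scale. With all libraries brought to a common median it was 0.33 (limma adjusted p = 0.00423), and with quantile normalization 0.23 (limma adjusted p = 0.0108), both called. Nop60B was at 47.6, 47.4 and 49.3 RPKM in the libraries labelled Ataxin-7, against 41.1, 42.4 and 40.9 RPKM in FRT ovaries. These groups did not overlap, and the log2 fold change of 0.21 was called (SE 0.034, limma adjusted p = 0.00292). In non-stop ovaries it was at 62.1, 57.3 and 58.1 RPKM, against 67.2, 64.4 and 68.5 RPKM in FRT ovaries. All non-stop values were lower than all FRT values, but the log2 fold change of -0.17 missed the threshold (limma adjusted p = 0.057, 95% interval -0.32 to -0.022). It was called when libraries were brought to a common median (-0.24, limma adjusted p = 0.011), with no filter and in one fit of all 18 libraries, and was -0.015 with quantile normalization.

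**Figure D2:**
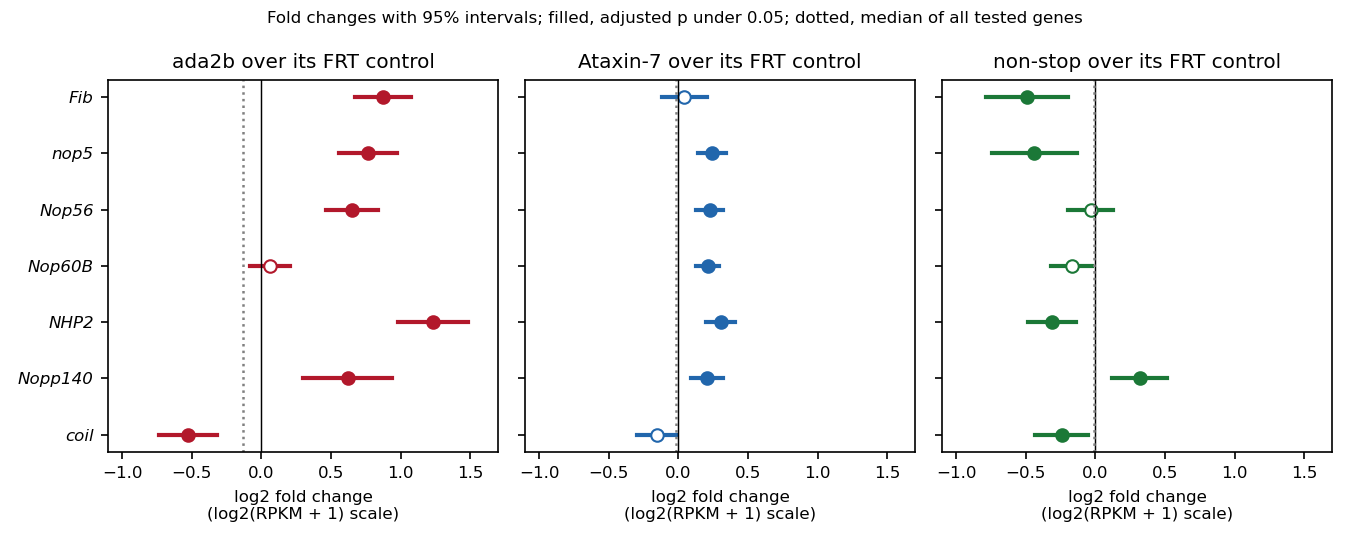
Log2 fold change on the log2(RPKM + 1) scale (horizontal axis) of each of the 7 genes, mutant over its own FRT control, with the limma 95% interval as a bar, filled points for an adjusted p under 0.05, a solid line at 0 and a dotted line at the median of all tested genes. NHP2 in ada2b ovaries has the largest change, at 1.24, and Fib, nop5 and NHP2 lie right of 0 in ada2b ovaries and left of it in non-stop ovaries.

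Nopp140 encodes a phosphoprotein of the nucleolus and Cajal body that binds both kinds of snoRNP (FBgn0037137; 3L, 21832774 to 21836685, plus strand). In ada2b ovaries it was at 78.0, 113 and 94.7 RPKM, against 63.4, 59.9 and 59.9 RPKM in FRT ovaries. The ada2b values were all higher but spread widely, with a coefficient of variation of 18.6%, the highest of the 7 genes in any group. Its log2 fold change was 0.62 (SE 0.13, limma adjusted p = 0.00584), and it was 0.75 without ada2b replicate 1. Nopp140 was at 96.7, 104 and 109 RPKM in the libraries labelled Ataxin-7, against 89.7, 90.9 and 87.0 RPKM in FRT ovaries. The groups did not overlap, and the log2 fold change of 0.20 (SE 0.049, limma adjusted p = 0.0137) was not called in one fit of 18 libraries (limma adjusted p = 0.162). In non-stop ovaries it was at 111, 108 and 98.2 RPKM, against 87.5, 76.9 and 89.4 RPKM in FRT ovaries. All non-stop values were higher, so that Nopp140 was the only one of the 7 genes whose values under the mutant label lay above the control values in all 3 experiments. Its log2 fold change was 0.32 (SE 0.084, limma adjusted p = 0.0156). It was not called without FRT replicate 2 (0.25, limma adjusted p = 0.0678) or without non-stop replicate 1 (0.28, limma adjusted p = 0.055).

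The coil gene encodes coilin, which in flies is needed for Cajal bodies to form (FBgn0033265; 2R, 8124981 to 8127242, minus strand). On the RPKM scale it was the lowest of the 7 genes in every group, and it was the 1 gene of the 7 called lower in ada2b ovaries. There it was at 9.84, 11.9 and 11.6 RPKM, against 16.1, 17.3 and 15.8 RPKM in FRT ovaries. All 3 ada2b values were lower, and the ratio of the means was 0.677. The log2 fold change was -0.53 (SE 0.086, limma adjusted p = 0.0018), -0.45 without ada2b replicate 1 and -0.27 with libraries at a common median, and it was called in each of these. Libraries labelled Ataxin-7 had coil at 25.5, 22.6 and 22.1 RPKM, against 25.2, 26.0 and 27.2 RPKM in FRT ovaries. Replicate 1 overlapped the controls while replicates 2 and 3 lay below them. The log2 fold change of -0.16 was not called (limma adjusted p = 0.0674, 95% interval -0.29 to -0.017), but without replicate 1 it was -0.22 and called (limma adjusted p = 0.0138). In non-stop ovaries coil was at 14.1, 14.4 and 12.2 RPKM, against 15.2, 16.3 and 17.2 RPKM in FRT ovaries. The non-stop values were all lower, by a log2 fold change of -0.24 that was just past the threshold (SE 0.082, limma adjusted p = 0.0411). Leaving out FRT replicate 2 or 3, or non-stop replicate 1 or 3, gave values between -0.17 and -0.27, and it was then not called.

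The same values were also counted by whether the 3 values of each group overlap, a count that is not independent of the calls. In ada2b ovaries 6 of the 7 genes did not overlap their controls, where 76.2% of all tested genes did not. For the libraries labelled Ataxin-7 the number was 5 of 7 (57.2% of all genes), and for non-stop ovaries it was 6 of 7 (59.9% of all genes). By direction, 5 of the 7 lay wholly above their controls in ada2b ovaries (29.6% of all genes), 5 in the libraries labelled Ataxin-7 (26.0%), and 1 in non-stop ovaries (30.8%). Wholly below their controls were 1 gene in ada2b ovaries (46.7% of all genes), 0 in the libraries labelled Ataxin-7 (31.1%) and 5 in non-stop ovaries (29.0%).

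The changes in ada2b ovaries were set against their whole-transcriptome scale, because more genes were called lower than higher there. Bringing libraries to a common median moved the median of all genes by 0.25 on the log2 scale and quantile normalization moved it by 0.12, and of the called genes 58.8% and 47.7% were then higher, against 37.7% as deposited. Relative to the median of all genes, the log2 fold changes in ada2b ovaries were 1.37 for NHP2, 1.01 for Fib, 0.90 for nop5, 0.78 for Nop56, 0.75 for Nopp140, 0.19 for Nop60B and -0.39 for coil. The 6 of these genes other than Nop60B kept their direction and their call under both scalings. In non-stop ovaries the common median moved the median of all genes by -0.062, and 41.2% of the called genes were then higher, against 50.7% as deposited. Quantile normalization moved it by -0.0068, and 50.0% of the called genes were then higher. The median of the 7 genes in non-stop ovaries was -0.24 as deposited, with 4 called lower. It was -0.31 with 5 lower at a common median, and -0.069 with 1 lower under quantile normalization.

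Marker genes of several ovary cell types also changed in the same libraries. Germline markers with values (nanos, osk, bam, aub and otu) summed to 201 to 282 RPKM in ada2b ovaries, against 415 to 452 RPKM in FRT ovaries, and 4 of the 5 were called lower. Follicle cell markers (10 genes, mostly of the eggshell) summed to 9175 to 11840 RPKM, against 25481 to 29242 RPKM, with 6 called lower and 2 higher. Muscle markers summed to 191 to 316 RPKM in ada2b ovaries, against 18.8 to 35.7 RPKM in FRT ovaries, and 7 of 7 were called higher. Of all genes tested in ada2b ovaries, 42.3% were called lower and 25.6% higher. Fat body markers (10.8 to 37.7 RPKM, against 3.26 to 4.99 RPKM) and hemocyte markers (2.13 to 3.42 RPKM, against 0.112 to 0.178 RPKM) were also higher in range, both at low levels. In these whole-ovary samples fewer cells of a type and less RNA per cell cannot be told apart, and the part of the marker changes in the changes of the 7 genes was not tested.

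The same markers moved less in the other experiments. Germline markers summed to 548 to 565 RPKM in the libraries labelled Ataxin-7, against 564 to 611 RPKM in FRT ovaries, with 2 of 5 called lower. Follicle cell markers summed to 27157 to 32482 RPKM there, against 34018 to 39940 RPKM, with 5 of 10 called lower and 1 higher. Muscle markers summed to 62.9 to 86.9 RPKM there, against 32.2 to 45.9 RPKM, and 5 of the 5 tested were called higher. Of all genes tested in those libraries, 24.3% were called lower and 20.0% higher. In non-stop ovaries germline markers summed to 371 to 424 RPKM, against 381 to 394 RPKM in FRT ovaries, follicle cell markers to 10776 to 13700 RPKM, against 6859 to 12615 RPKM, and muscle markers to 51.0 to 97.0 RPKM, against 49.9 to 71.8 RPKM. Of 5 germline markers 2 were called higher and 1 lower there, and of 9 follicle cell markers tested 2 higher and 1 lower. Of all genes tested in non-stop ovaries, 25.7% were called higher and 25.0% lower. The part of these values in the results was not tested either. No marker of germline, follicle cells or muscle that had a value was at 0 in any group, and 1 of the 4 fat body markers was at 0 in the FRT ovaries of the ada2b and Ataxin-7 experiments.

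The changes in the 3 experiments were then compared directly, as a difference of 2 log2 fold changes in one limma fit of 12 libraries. Because each genotype had its own experiment, these differences cannot be credited to genotype alone. Between ada2b and non-stop, 5 of the 7 genes differed, near the share of 70.6% over all 7618 genes tested. NHP2 had the largest difference, with a log2 fold change of 1.24 in ada2b ovaries and -0.31 in non-stop ovaries, a difference of 1.55 (SE 0.13, limma adjusted p = 3.53e-06). The difference was 1.37 for Fib, 1.21 for nop5, 0.68 for Nop56 and 0.23 for Nop60B. Nopp140, which was called higher in both, did not pass this test, with a difference of 0.30 (95% interval -0.061 to 0.66, limma adjusted p = 0.122). Nor did coil, which was called lower in both, with a difference of -0.29 (95% interval -0.55 to -0.020, limma adjusted p = 0.0526). A missed threshold does not show that the changes were equal, and with libraries at a common median the Nopp140 difference was 0.64 and called, while that of coil was 0.031.

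Between ada2b and the libraries labelled Ataxin-7, 6 of the 7 genes differed, against 68.5% of all 7601 genes. The difference was 0.93 for NHP2 (SE 0.12, limma adjusted p = 4.7e-05), 0.83 for Fib, 0.53 for nop5, 0.42 for Nop56, 0.42 for Nopp140 and -0.37 for coil. Nop60B did not pass, with a difference of -0.15 (95% interval -0.29 to -0.0094, limma adjusted p = 0.0557), and with libraries at a common median it was 0.12. Between the libraries labelled Ataxin-7 and non-stop, whose genes belong to one SAGA module, 5 of the 7 genes differed, against 37.5% of all 7482 genes. nop5 had the largest difference, at 0.68 (SE 0.15, limma adjusted p = 0.00459), followed by NHP2 at 0.62, Fib at 0.54, Nop60B at 0.38 and Nop56 at 0.26. For Nopp140 the difference was -0.12 (95% interval -0.33 to 0.10) and for coil 0.086 (95% interval -0.14 to 0.31), and neither was called.

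How the 7 genes varied together was described over the 18 libraries, with each experiment's mean removed from log2(RPKM + 1). Of the 21 pairs, 7 had a Pearson correlation above 0.8. Fib and nop5 had 0.94, Nop56 and NHP2 0.93, and Fib and NHP2 0.91. Nop60B was set apart from its H/ACA partner, with 0.53 to NHP2, and Nop60B and Nopp140 had 0.17. coil had a negative correlation in 6 of 6 pairs, the most negative being -0.74 with NHP2. These points share their libraries, their scaling and the genotype differences given above, and the correlations carry no test.

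**Figure D3:**
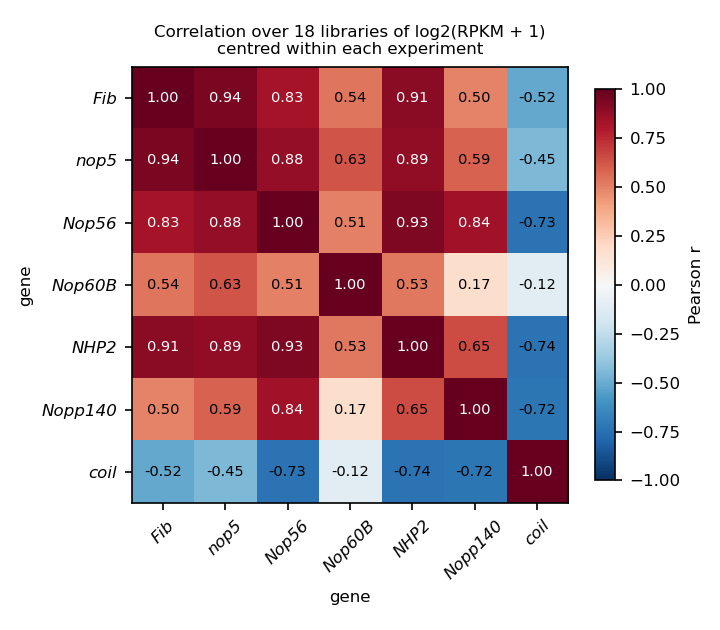
Pearson correlation (colour scale from -1 to 1, number in each square) between each pair of the 7 genes over 18 libraries of log2(RPKM + 1), with each experiment's mean removed. Fib, nop5, Nop56 and NHP2 form a block of 0.83 to 0.94, and the row of coil is negative throughout.

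The genes most like the mean of the 7 in this measure were sought among 7171 genes whose mean RPKM reached 1 in every experiment. Of the 7 themselves, nop5 had the highest correlation with the mean (0.98) and coil the lowest (-0.58), beside a median of -0.32 over all genes. Each of the 7 is part of that mean, which raises its own correlation with it. Outside them, the first was E(spl)m3-HLH (0.97), a Notch target gene of the bHLH repressor family. E(spl)m3-HLH is expressed at low levels, with 2.96 RPKM in FRT ovaries of the ada2b experiment, and its log2 fold change was 1.60 in ada2b ovaries, 0.32 in the libraries labelled Ataxin-7 and -0.79 in non-stop ovaries. Art8, an arginine methyltransferase gene, followed with 0.97, then CG10286 (0.96), the S-adenosylmethionine synthetase gene Sam-S (0.96), which makes the methyl donor that fibrillarin and other methyltransferases use, and pain (0.95), which encodes a TRPA channel. Sam-S was at 136 RPKM in ada2b ovaries and 58.3 RPKM in FRT ovaries, and at 38.8 RPKM in non-stop ovaries and 64.6 RPKM in FRT ovaries. 14-3-3zeta, x16, CG15611, tmod and FBgn0086910, which has no symbol in the annotation, completed the 10, at 0.95 each. x16 shares the reads of nop5, and none of the 10 was on any of the lists below. By Spearman's rank correlation 4 of the 10 were also among the first 10.

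Levels of the 7 genes were ranked per kilobase of length. As deposited, on the RPKM scale, nop5 and Nop56 were the highest in FRT ovaries of each experiment and Nop60B and coil the lowest. In the FRT ovaries of the ada2b experiment the order was nop5 (114 ± 6.09 RPKM, SD, n = 3), Nop56 (108 ± 6.41), NHP2 (81.8 ± 4.06), Fib (71.1 ± 5.46), Nopp140 (61.1 ± 1.98), Nop60B (43.2 ± 1.28) and coil (16.4 ± 0.786). The neighbours nop5 and Nop56 overlapped there, and every other pair of neighbours in that order was separate. In the FRT ovaries of the Ataxin-7 experiment Nop56 and nop5 again overlapped, as did Nopp140 and NHP2, and in those of the non-stop experiment nop5 and NHP2 overlapped, as did Fib and Nopp140.

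The length behind the values decided the place of Nop60B in this order. The deposited RPKM of the gene used a length of 11619 bp, close to its span of 11467 bp in BDGP6.54, of which exons cover 3412 bp (29.8%). Most of the rest is an annotated transposable element insertion of 7428 bp (2R, 24177291 to 24184718), on the strand opposite to Nop60B. For the other genes exons cover between 72.5% (Fib) and 92.9% (NHP2) of the span. Dividing the same reads by the exonic length put Nop60B first in all 3 sets of FRT ovaries, at 147 ± 4.35, 141 ± 2.82 and 227 ± 7.03 RPM per exonic kilobase (ada2b, Ataxin-7 and non-stop experiment). On this scale it overlapped only its neighbour Nop56 in the FRT ovaries of the Ataxin-7 experiment. coil stayed last on this scale, at up to 29.0 ± 1.08 in the Ataxin-7 experiment. These reads include any from introns, so the exonic scale can overstate a level, and exons are the smallest share of the span in Nop60B. The choice of length leaves the ratios between mutant and control of one gene as they are.

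**Figure D4:**
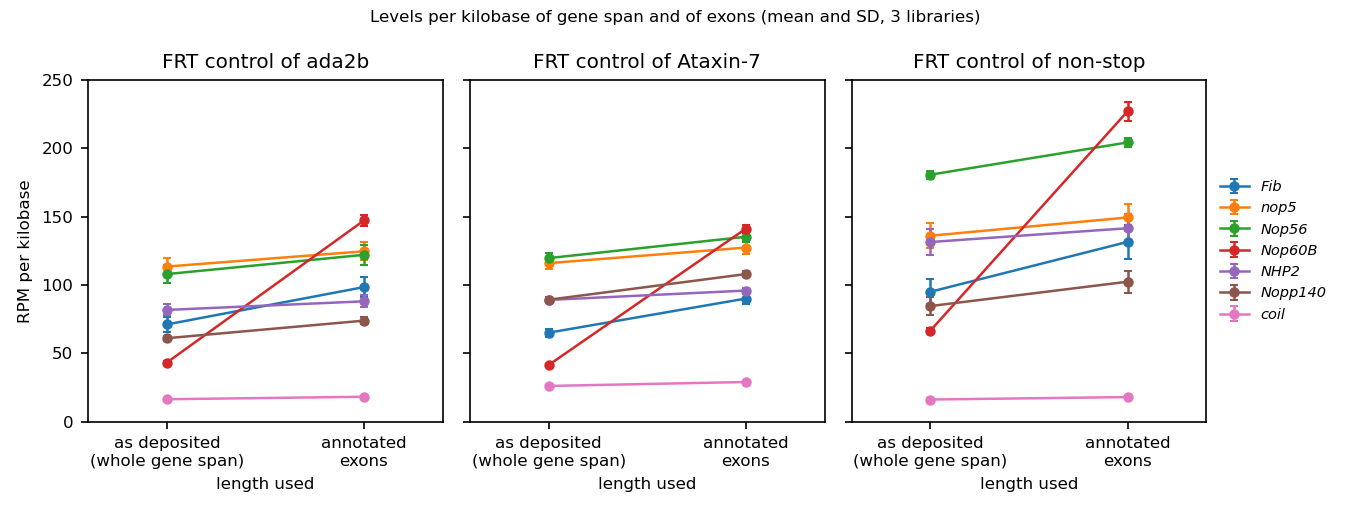
Mean level and SD of the 7 genes in the 3 sets of FRT libraries, in RPM per kilobase (vertical axis), with the deposited length on the left of each panel and the annotated exonic length on the right. Nop60B goes to the first place with the exonic length in each panel, at 147, 141 and 227, and coil is the lowest with either length. The reads are those of the whole span with either length.

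Some of the genes carry snoRNA genes on the same strand, 1 in Fib, 7 in Nop60B and 1 in nop5, which are cut from the introns or transcripts of their host, and their reads are also counted for the host. They made up at most 0.693% of the reads of Fib, 1.58% of those of Nop60B (in ada2b replicate 1) and 0.123% of those of nop5. In RPM, the 7 snoRNAs of Nop60B summed to 8.44, 4.01 and 2.32 in ada2b ovaries, against 0.660, 0.995 and 0.585 in FRT ovaries. All 3 ada2b sums were higher, while Nop60B itself overlapped its controls. All of these snoRNAs but snoRNA:Psi18S-1820 overlap exons of Nop60B, so their counts can include reads of the host transcript. Among them, snoRNA:Or-CD9a held 49 to 83 reads in ada2b libraries, against 6 to 9 in FRT libraries. The mean of snoRNA:Psi18S-1820 was 3.46 RPKM in ada2b ovaries, against 0.594 RPKM in FRT ovaries. Under the Ataxin-7 label it was 2.26 RPKM, against 2.72 RPKM in FRT ovaries. In non-stop ovaries it was 0.499 RPKM, against 1.08 RPKM. Libraries labelled Ataxin-7 had sums over the 7 snoRNAs of 2.15, 2.00 and 2.31, against 0.785, 1.22 and 0.744 in FRT ovaries. The sums were 1.17, 1.69 and 1.51 in non-stop ovaries, against 1.67, 1.59 and 1.53 in FRT ovaries. The snoRNA of Fib, snoRNA:229, had 11 to 14 reads in ada2b libraries, against 0 to 5 in FRT libraries, and 25 to 33 reads in the libraries labelled Ataxin-7, against 4 to 6 in FRT libraries. Poly(A) libraries capture little mature snoRNA, and these counts are small. Nopp140 and coil overlap the ends of their neighbours P5CDh1 and Nup50 by 21 and 78 bp on the opposite strand.

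Other genes of snoRNP and ribosome assembly were described from lists chosen by function, with earlier results of these data known, so their counts are a description and not an independent test. The counts are set beside the shares of all genes called higher and lower, 25.6% and 42.3% in ada2b ovaries, 20.0% and 24.3% in the libraries labelled Ataxin-7, and 25.7% and 25.0% in non-stop ovaries. Of the other snoRNP subunits and assembly factors (10 genes), 3 were called higher and 5 lower in ada2b ovaries, near those shares, with a median log2 fold change of -0.34 beside -0.13 over all genes. The 5 became 3 with a common median (list median -0.071), with quantile normalization (-0.13), with no filter, and without FRT replicate 1, 2 or 3. Those that rose included the remaining H/ACA core proteins, Nop10 (193 ± 55.0 RPKM in ada2b ovaries and 98.2 ± 13.1 RPKM in FRT ovaries, log2 fold change 0.94, limma adjusted p = 0.00588) and Gar1 (76.2 ± 8.08 and 42.4 ± 5.38 RPKM, log2 fold change 0.83, limma adjusted p = 0.000968). The largest fall was that of spag, which encodes an RPAP3-like co-chaperone of the R2TP complex, at 17.0 ± 2.80 RPKM in ada2b ovaries and 44.7 ± 1.30 RPKM in FRT ovaries (log2 fold change -1.36, limma adjusted p = 0.000151). Libraries labelled Ataxin-7 had 1 called higher, Pih1D1 (log2 fold change 0.11), and 2 lower, the R2TP ATPases pont (-0.31) and rept (-0.19), with a list median of -0.059. In non-stop ovaries 4 of the 10 were called lower, with pont at -0.73, rept at -0.41 and CG10341, the fly gene for the H/ACA assembly factor Naf1, at -0.27 among them, and none higher by limma on RPKM (1 at an unadjusted p under 0.05, and 1 by limma voom), with a median of -0.21. The call on Pih1D1 was lost without any 1 of the 6 libraries, and in non-stop ovaries 2 were lower without FRT replicate 2 and 1 was higher without FRT replicate 3.

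Genes of the SMN complex, the Sm proteins and Cajal body assembly (19 genes), with which coilin works, had 10 called lower and 1 higher in ada2b ovaries, against 42.3% and 25.6% of all genes, with a median of -0.33. With a common median 7 were lower and the list median was -0.064, with quantile normalization 8 were lower, and without FRT replicate 1, 2 or 3 none was called higher. The largest falls were rig, the fly Gemin5 gene, at 12.9 ± 3.26 RPKM in ada2b ovaries and 47.4 ± 1.23 RPKM in FRT ovaries (log2 fold change -1.83, limma adjusted p = 0.000201), the Sm core gene SmD3 (-1.18) and Gem3, the Gemin3 helicase gene (-1.04). Here 7 were called lower and 1 was called higher in the libraries labelled Ataxin-7 (median -0.10), with Snup, the snurportin gene, the largest at -0.37, followed by rig (-0.22) and Gem4b, a Gemin4 gene (-0.21). There the number higher was 0 without FRT replicate 2 and 3 without FRT replicate 3, while 4 were lower in one fit of 18 libraries. In non-stop ovaries 6 were called lower and 3 higher, with a median of -0.074 that turned to 0.055 with quantile normalization. Without FRT replicate 2 or 3, or with a replicate block, 3 were lower there. Values in non-stop ovaries were -0.68 for rig and 0.63 for Gem4b, while mxc, which organizes the histone locus body, was at 15.8 ± 0.992 RPKM in non-stop ovaries and 8.75 ± 1.06 RPKM in FRT ovaries (log2 fold change 0.79, limma adjusted p = 0.00053).

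The ribosome biogenesis factors (22 genes tested of 25 listed), which act on the same pre-ribosomes, had 15 called higher and 2 lower in ada2b ovaries, with a median of 0.43. The 2 became 1 under both other scalings and without ada2b replicate 1 or 3 or FRT replicate 1 or 2. nclb, the fly PWP1 gene, was at 81.6 ± 1.46 RPKM in ada2b ovaries and 32.0 ± 2.09 RPKM in FRT ovaries (log2 fold change 1.32, limma adjusted p = 3.19e-05), and CG6724 was higher by 1.16. An exception was mod, which encodes the nucleolar DNA- and RNA-binding protein Modulo, at 49.1 ± 11.8 RPKM in ada2b ovaries and 299 ± 7.98 RPKM in FRT ovaries (log2 fold change -2.61, limma adjusted p = 4.66e-05). In the libraries labelled Ataxin-7 the calls were 9 lower and 2 higher, with a median of -0.10. The nucleostemin-family GTPase genes Ns1 and Ns2 were at -0.47 and -0.27 and mod was higher by 0.32. With quantile normalization 6 were lower, in one fit of 18 libraries 5 were lower and none higher, and without FRT replicate 2 the number higher was 1. In non-stop ovaries 14 were called lower and 1 higher, with a median of -0.31, the largest falls being CG5033, the fly BOP1 gene (-0.62), Surf6 (-0.61) and Mys45A (-0.52). These medians kept their signs under both other scalings.

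Genes of RNA polymerase I and Myc (14 genes), which set the making of ribosomal RNA, were called higher in 9 cases and lower in 2 in ada2b ovaries, with a median of 0.44. Polr1C and Polr1D, subunits shared by RNA polymerases I and III, were higher by 0.88 and 0.79, and TAF1B was at -0.70. In libraries labelled Ataxin-7 the calls were 4 higher and 2 lower (median -0.022), with Polr1E higher by 0.52, Polr1F by 0.31 and Polr1D at -0.34. Of the 2 lower, 1 was left in ada2b ovaries under both other scalings and without ada2b replicate 3 or any FRT replicate, and 1 in the libraries labelled Ataxin-7 without replicate 2 or 3 or FRT replicate 1 or 3. In non-stop ovaries 5 were called higher and 3 lower, with a median of 0.038 that turned to -0.025 with libraries at a common median. Polr1E was at -0.52 there, while the Myc antagonist Mnt was at 0.78 and the initiation factor Tif-IA at 0.50. Myc itself was at 10.5 RPKM in ada2b ovaries and 8.45 RPKM in FRT ovaries and was not called (log2 fold change 0.26, limma adjusted p = 0.19).

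The RNA exosome (11 genes), which trims snoRNA and ribosomal RNA precursors, had 9 genes called higher and 1 lower in ada2b ovaries, with a median of 0.51 and Rrp40 (0.73), Rrp46 (0.73) and Rrp42 (0.61) in front. None was lower there under both other scalings, or without ada2b replicate 1 or 3 or any 1 FRT library. The libraries labelled Ataxin-7 had 4 called lower (median -0.089) and in non-stop ovaries 5 (median -0.19), and none was called higher in either by limma on RPKM, by limma voom or at an unadjusted p under 0.05. The exosome subunit Rrp4 was the largest of these, at 17.9 ± 0.462 RPKM in the libraries labelled Ataxin-7 and 30.0 ± 0.785 RPKM in FRT ovaries (log2 fold change -0.72, limma adjusted p = 3.38e-05), and at 24.3 ± 1.76 RPKM in non-stop ovaries and 44.2 ± 2.66 RPKM in FRT ovaries (log2 fold change -0.84, limma adjusted p = 0.000214). Next were Rrp40 (-0.37) and Rrp45 (-0.23) in the libraries labelled Ataxin-7, and Rrp40 (-0.65) and Rrp46 (-0.54) in non-stop ovaries.

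The noncoding snoRNA host genes of the Uhg family (7 genes tested), whose introns hold snoRNAs, had the highest list median in ada2b ovaries, 1.08, with 5 called higher and none lower (1 lower at an unadjusted p under 0.05, and 1 by limma voom). Uhg5 was at 20.9 ± 8.58 RPKM in ada2b ovaries and 6.03 ± 1.05 RPKM in FRT ovaries (log2 fold change 1.58, limma adjusted p = 0.00185), with Uhg2 higher by 1.37 and Uhg4 by 1.24. Uhg8 (-0.45) was the 1 of the 7 called lower in the libraries labelled Ataxin-7, and none was called higher (1 at an unadjusted p under 0.05, and 0 by limma voom), with a median of -0.0086. In non-stop ovaries 2 were called lower, Uhg7 (136 ± 19.8 RPKM in non-stop ovaries and 234 ± 20.6 RPKM in FRT ovaries, log2 fold change -0.79, limma adjusted p = 0.00159) and Uhg2 (-0.51), with a median of -0.23 and none called higher by either tool or at an unadjusted p under 0.05. In ada2b ovaries 1 was lower without ada2b replicate 1. In the libraries labelled Ataxin-7 1 was higher and 2 were lower without replicate 1, and none was lower without FRT replicate 1. In non-stop ovaries 1 was higher without FRT replicate 2.

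**Figure D5:**
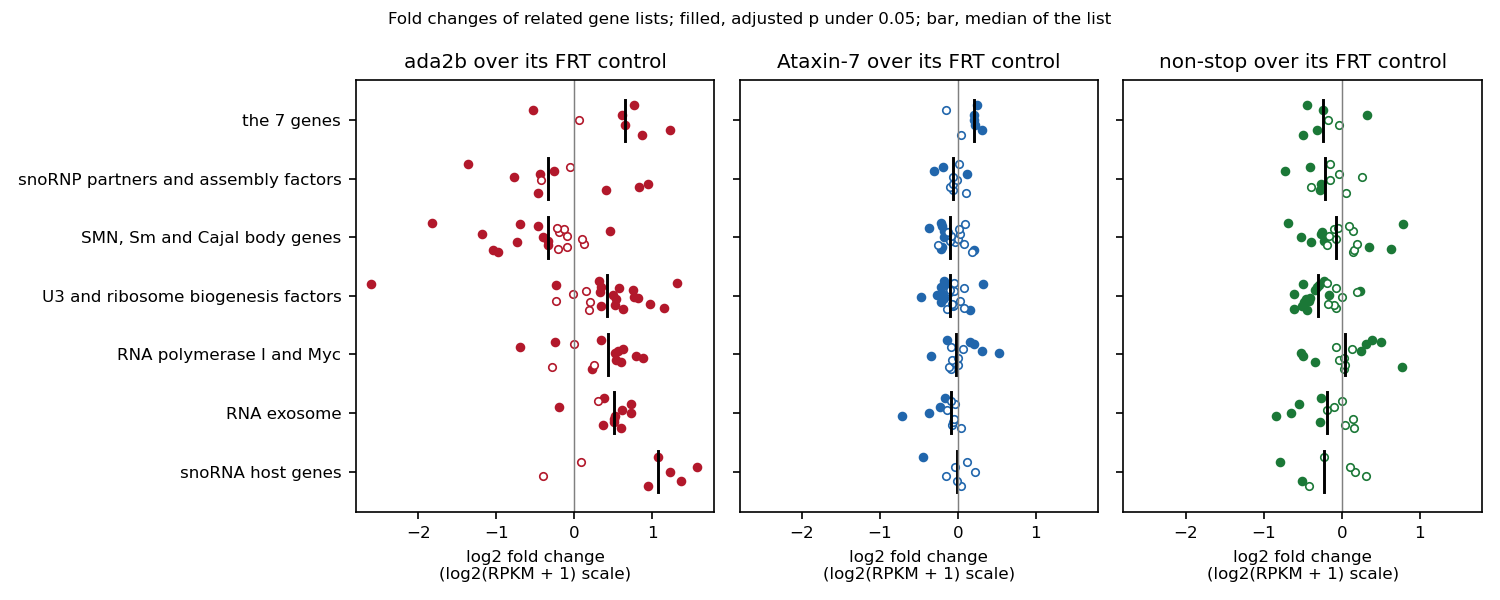
Log2 fold change on the log2(RPKM + 1) scale (horizontal axis) of the 7 genes and of each tested gene of 6 related lists, mutant over its own FRT control, with filled points for a limma adjusted p under 0.05 and a bar at the median of each list. In ada2b ovaries the medians of the ribosome biogenesis, RNA polymerase I and Myc, exosome and snoRNA host lists lie between 0.43 and 1.08, and those of the snoRNP partner and SMN lists at -0.34 and -0.33.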

How the data were processed

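Poly(A) RNA of ovaries was sequenced from stranded libraries in 18 samples, grouped by the labels. The authors deposited RPKM values for 15682 genes. The submitters' processing notes name CASAVA 1.8.2, TopHat2 2.0.13, edgeR 3.14.0 and the genome build dm3, without roles, and the counting tool and strand setting are not given in the sources used here. Every value of the 13903 genes above 0 was a whole multiple of 1 read (within 0.01 reads, 100.0% of genes), so read counts could be recovered. Of 10796 genes above 0 with introns, the length behind the values equalled the whole gene span in BDGP6.54 in 5115 and the exonic length in 23, and for the members it equalled the span in 5 of 7 (1824 against 1817 bp for Fib, 11619 against 11467 bp for Nop60B), so intronic and nested same-strand reads enter a gene's value. Positions are those of BDGP6.54 and were used for location and exonic length only.

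Differences were fitted with limma 3.58.1 in R 4.3.3 (lmFit, eBayes with a trend) on log2(RPKM + 1), in the 6 libraries of an experiment, for genes whose mean RPKM reached 1, with Benjamini-Hochberg adjustment over all tested genes and a threshold of 0.05. The + 1 understates changes of genes at low RPKM. Differences between genotypes were tested as an interaction over 12 libraries. The fits were also run on simulated reads with 200 genes changed by a known fold. That is far fewer genes than were called here, so the simulation does not cover the conditions of these data. The libraries are stated to be biological triplicates and every pair of replicates differed beyond sampling noise. The members and lists were chosen with earlier results of these data known, and no p-value was adjusted over a list alone. Named genes are the members, the mutated genes, the 3 called genes of largest change in each list and comparison, and the 10 genes most like the members. Myc was named in addition, after its values were seen. Alternatives were a pseudocount of 0.1, a minimum mean RPKM of 5 or none, a common median, quantile normalization, a replicate block, a joint fit of all 18 libraries, limma voom on the recovered reads, and leaving out each library. Python 3.11.15 with pandas 2.3.3, and matplotlib 3.10.9 for plots, were used for the rest.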

Additional observations from a re-analysis of the deposited data

Results flagged for a closer look

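The change against the FRT control differed between genotypes, by the limma interaction over 12 libraries, in 16 of the 21 tests of the 7 genes. These were 5 of the 7 for ada2b minus non-stop, near the share of 70.6% over all genes. They were 6 of the 7 for ada2b minus the libraries labelled Ataxin-7, against 68.5%, and 5 of the 7 for the libraries labelled Ataxin-7 minus non-stop, against 37.5%. The 16 is a tally over tests that share their libraries. As ada2b minus non-stop the differences in log2 fold change were 1.37 for Fib, 0.23 for Nop60B, 1.21 for nop5, 0.68 for Nop56 and 1.55 for NHP2. As ada2b minus the libraries labelled Ataxin-7 they were 0.83 for Fib, 0.53 for nop5, 0.42 for Nop56, 0.93 for NHP2, 0.42 for Nopp140 and -0.37 for coil. As the libraries labelled Ataxin-7 minus non-stop they were 0.54 for Fib, 0.38 for Nop60B, 0.68 for nop5, 0.26 for Nop56 and 0.62 for NHP2. Each genotype was run in its own experiment, so the genotype and the experiment cannot be told apart in these differences.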

How the results depend on the processing

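Of 294 recomputed fold changes of the 7 genes, 268 kept their direction and their side of the threshold, 16 lost a call, 7 gained one and 3 changed sign, and of 105 recomputed differences between genotypes 98 kept both. In ada2b ovaries the calls on Fib, nop5, Nop56, NHP2, Nopp140 and coil held under all 14 alternatives. Of 504 recomputed counts of called genes in the 6 related lists, 425 stayed within 1.5 times and 79 did not, 67 of these from counts of at most 2. Among the other 12, the snoRNP partners called lower in ada2b ovaries went to 3 (5 as deposited) under 6 alternatives, and in one fit of 18 libraries those called lower in the libraries labelled Ataxin-7 were 4 of the SMN list (7) and 5 of the ribosome biogenesis list (9). The single exosome gene lower in ada2b ovaries was lost under 10 alternatives. The cause of the other changes was not tested.

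With a common median 3071 genes were called higher and 2151 lower in ada2b ovaries (1962 and 3247 as deposited). Nop60B in ada2b ovaries was then at 0.33, and Nop60B in non-stop ovaries at -0.24, both called. The ada2b minus non-stop difference was 0.64 for Nopp140 (called) and 0.031 for coil (sign turned), and the ada2b minus Ataxin-7 difference was 0.12 for Nop60B (sign turned) and -0.11 for coil (not called). With quantile normalization Nop60B in ada2b ovaries was at 0.23 (called), and in non-stop ovaries only 1 gene was lower, with Fib at -0.29, nop5 at -0.21 and NHP2 at -0.069 (not called) and Nop56 at 0.18 (sign turned). With no filter the fold changes stay as they are, but the limma variance trend and the adjustment are then taken over more genes, so calls can change. In non-stop ovaries Nop60B (-0.17) was then called and nop5 (-0.44) and coil (-0.24) were not. Of the ada2b minus Ataxin-7 differences Nop60B (-0.15) was called and Nopp140 (0.42) was not.

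In one fit of 18 libraries the libraries labelled Ataxin-7 had 841 genes called higher and 1016 lower (1485 and 1803 in their own fit), and of the 7 genes 3 were higher, nop5 (0.24) and Nopp140 (0.20) no longer being called, while Nop60B in non-stop ovaries (-0.17) was. With limma voom coil was called lower in the libraries labelled Ataxin-7 (-0.16), the 1 gene of the 7 to be so.

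Leaving out 1 library gave 0 to 1 genes lower in the libraries labelled Ataxin-7, and 0 to 1 higher and 2 to 4 lower in non-stop ovaries. In the libraries labelled Ataxin-7, Fib ranged over -0.0064 to 0.12, its sign turning to -0.0064 without replicate 3, and coil over -0.22 to -0.12. In non-stop ovaries nop5 ranged over -0.52 to -0.29, Nop56 over -0.072 to 0.011, turning to 0.011 without replicate 3, Nopp140 over 0.25 to 0.37 and coil over -0.28 to -0.17.

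Replicate numbers are shared by mutant and FRT libraries in the labels. The mean correlation of the deviations of same-numbered libraries was 0.020, -0.16 and 0.036 for ada2b, Ataxin-7 and non-stop in turn. The numbers were therefore not taken as a pairing, although 2 of the 3 non-stop pairs were above 0.1 (-0.13, 0.11 and 0.13). With a replicate block coil in non-stop ovaries (-0.24, limma adjusted p = 0.0722) and the Ataxin-7 minus non-stop difference of Nop56 (0.26, limma adjusted p = 0.0664) were not called, and 3 genes were lower in non-stop ovaries. Depth did not limit the 7 genes, each with at least 454 reads, but it limits the snoRNAs inside them.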
